A study of Rattus norvegicus with 18 samples.

Results

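The genes described here encode the epithelial sodium channel (ENaC) and the corticosteroid pathway that sets its activity in the kidney. They are Scnn1a, Scnn1b and Scnn1g for the 3 channel subunits, Sgk1 and Nedd4 for a kinase and a ubiquitin ligase of the pathway, Nr3c2 and Nr3c1 for the mineralocorticoid and glucocorticoid receptors, and Hsd11b1 and Hsd11b2 for the enzymes that make and destroy active glucocorticoid. A probe set, a group of short array probes for 1 transcript, was taken for a gene when the array annotation gave it that gene symbol and no other. All 9 genes were found, with 19 of the 26202 probe sets, among 10969 genes with such a probe set.

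Kidney RNA was compared between 2 rat strains. One is the Dahl Salt-sensitive (S) rat, inbred and prone to hypertension when fed salt. The other is a congenic strain, S in background with a stretch of chromosome 9 from a salt-resistant (R) strain, which carries a locus for blood pressure. The labels give no treatment, diet, age or sex for either. RNA of 3 kidney samples per strain was run on 3 array types (A, B and C), 18 arrays in all. Since no label states that these were separate animals, part of the variation among the 3 samples may be technical. The error behind each p-value joins that variation with the usual variation of probe sets of like signal. In the reference gene table (assembly GRCr8) none of the 9 genes lay on chromosome 9. Scnn1b and Scnn1g were direct neighbours on chromosome 1, Sgk1 was also on chromosome 1, Scnn1a on 4, Nedd4 on 8, Hsd11b1 on 13, Nr3c1 on 18, and Nr3c2 and Hsd11b2 on 19.

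ENaC is the apical channel through which sodium enters the principal cells of the connecting tubule and collecting duct, the last place where the kidney can adjust sodium excretion. Aldosterone, acting through the mineralocorticoid receptor, raises channel activity, in part by inducing the kinase Sgk1, which keeps ubiquitin ligases of the Nedd4 family from removing the channel from the membrane. The receptor also binds glucocorticoid, and Hsd11b2, which inactivates glucocorticoid, keeps it available to aldosterone in these cells.

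Between the strains, no difference in the 8 genes that could be tested passed the threshold, and Nr3c1 was not tested. The mean signals of Scnn1a, Scnn1g and Hsd11b2 differed between the strains by at most 0.10 log2 units, Scnn1b was too uneven to give a direction, Sgk1 read higher in 2 of the 3 congenic samples, and the glucocorticoid receptor was measured by dim probe sets only. Of the 19 probe sets, 11 were tested and 8 were not, because their mean log2 signal was under the 40th percentile of their array type (a signal of 21.2 on type A, 39.3 on B and 37.7 on C). The 11 covered 8 genes, all but Nr3c1. In limma's moderated test with Benjamini-Hochberg adjustment over all 15721 tested probe sets, 0 of the 11 passed an adjusted p of 0.05, and in the whole comparison 0 probe sets passed (0%). At an unadjusted limma p under 0.05 there were also 0 of the 11, against 2.49% of all tested probe sets. The 3 values of one strain lay wholly above those of the other in 0 of the 11, against 7.08% of all tested probe sets. The congenic strain had the higher mean in 7 of the 11 and the lower in 4, with a median of +0.07 log2 units, against -0.003 for all tested probe sets. These intervals are wide: the 95% confidence interval of a difference reached 0.59 log2 units to either side in the median of the 11, and 0.68 in that of all tested probe sets.

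**Figure D1:**
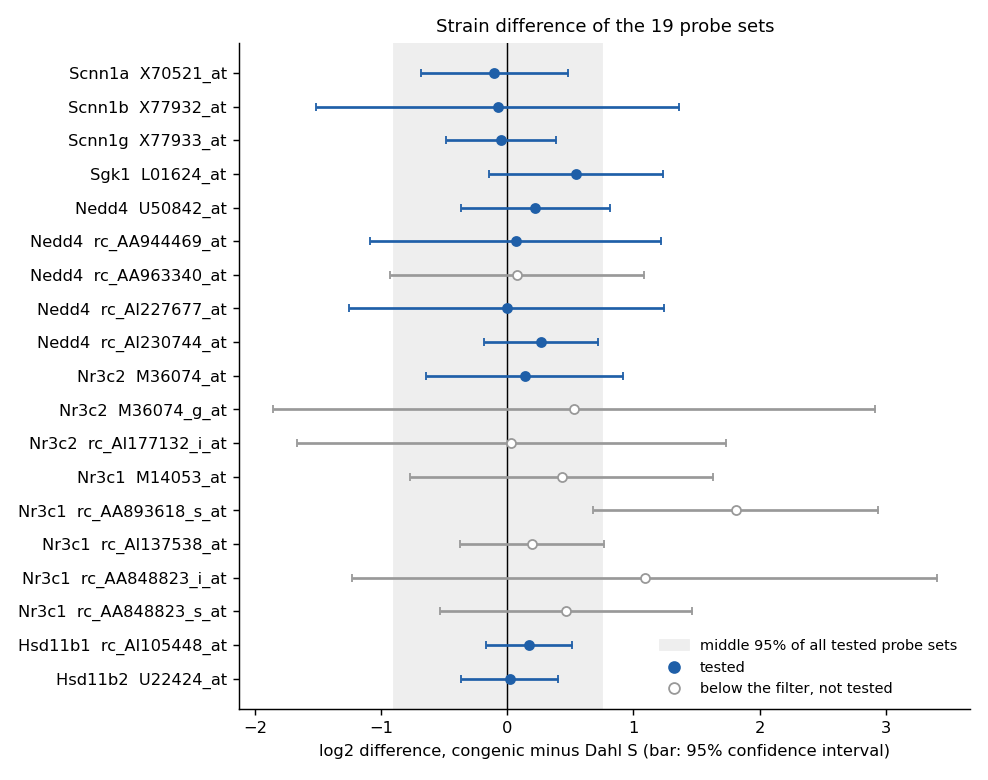
Log2 difference in signal, congenic minus Dahl S, for each of the 19 probe sets (y axis), with 95% confidence intervals from limma; filled points were tested, open grey points were under the filter on dim probe sets and come from a fit without it. The grey band holds the middle 95% of all tested probe sets (-0.90 to 0.75), and every filled point lies inside it, with an interval that includes 0.

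Genes that mark cell types of the kidney were also read. All 6 of the proximal tubule markers and 3 of the 4 thick ascending limb markers listed were bright enough to be tested. So were 6 of the 8 markers of the principal cell, the cell that holds ENaC. For comparison, 8168 of the 10969 genes on the arrays had a tested probe set. These counts alone therefore do not show the tissue of origin. Among the tested principal cell markers, the water channel Aqp2 read 511.1 to 697.5 signal units over the 6 samples on its brightest probe set. The water channel Aqp4, a listed marker too dim to be tested, was at 1.3 to 46.0 on its 2 probe sets. Summed without Hsd11b2, the other 5 tested principal cell markers came to 1853 to 1959 units in Dahl S and 1893 to 2232 in congenic samples, so the strains overlapped. In whole kidney RNA, fewer cells of a type and less RNA per cell cannot be told apart. The adrenal cortex, which makes aldosterone and lies beside the kidney, had 4 of its 6 listed markers on the arrays. Cyp21a1, a steroid hydroxylase, was the 1 bright enough to be tested, at 16.4 to 55.2 units and with a log2 difference of -0.008. Cyp11a1 read 5.0 to 34.7 units, the aldosterone synthase gene Cyp11b2 1.7 to 8.6, and Star, the cholesterol carrier of steroid synthesis, 2.2 to 15.5.

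Scnn1a encodes the alpha subunit, which the channel cannot do without. Its 1 probe set, X70521_at, read 115.5, 109.4 and 129.5 signal units in Dahl S samples 1, 2 and 3 and 125.9, 129.2 and 81.4 in the congenic samples. Congenic sample 3 was the low one, and the other values lay within a narrow range. The means were 118 ± 10.3 and 112 ± 26.7 (SD, n = 3 per strain), a log2 difference of -0.10 (SE 0.25, 95% interval -0.68 to 0.48, limma adjusted p = 0.9997). Without congenic sample 3 the difference was +0.11, so its sign rested on that sample.

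Scnn1b, the beta subunit, was the least evenly measured of the 3. Probe set X77932_at read 24.5, 54.7 and 64.0 units in Dahl S and 53.1, 17.6 and 78.5 in congenic samples. The strains overlapped throughout, and congenic sample 2 fell under the filter level of 21.2 units. The spread within strains was 0.95 log2 units, larger than in 90.6% of the tested probe sets of type A. The log2 difference of -0.08 (SE 0.63, limma adjusted p = 0.9997) had a 95% interval from a ratio of 0.35 to one of 2.58. It was +0.55 without congenic sample 2, +0.19 without Dahl S sample 3 and +0.08 without Dahl S sample 2. Its sign also turned under quantile normalization (+0.012), so no direction can be given for Scnn1b.

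Scnn1g, the gamma subunit, was the most even of the 11 tested probe sets. X77933_at read 124.7, 135.3 and 139.1 units in Dahl S and 134.1, 125.0 and 126.3 in congenic samples, so the highest of the 6 values was 1.12 times the lowest. Its spread within strains, 0.07 log2 units, was smaller than in all but 0.99% of the tested probe sets of type A. The log2 difference was -0.05 (SE 0.19, limma adjusted p = 0.9997), with a 95% interval from a congenic to Dahl S ratio of 0.71 to 1.31. Of the 3 subunits this interval was the narrowest. It is wider than the probe set's own spread would give, because limma's error also draws on other probe sets.

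Sgk1, the serum- and glucocorticoid-induced kinase, had the largest log2 difference of the 11 tested probe sets. L01624_at read 297.1, 278.3 and 238.8 units in Dahl S and 439.2, 241.7 and 573.3 in congenic samples. Congenic samples 1 and 3 lay above all 3 Dahl S samples, and congenic sample 2 lay among them. The means were 271 ± 29.8 and 418 ± 167 (SD, n = 3 per strain). The log2 difference was +0.54, a 1.46-fold higher geometric mean in the congenic strain (SE 0.30, 95% interval -0.15 to 1.23). It did not pass (limma unadjusted p = 0.108, adjusted p = 0.9997) and ranked 1026th by p among the 15721 tested probe sets. The size depended on single samples: without congenic sample 2 it was +0.89, with the strains no longer overlapping, as in 15.9% of all tested probe sets without that sample (limma unadjusted p = 0.00302, adjusted p = 0.999). Without congenic sample 3 it was +0.27.

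**Figure D2:**
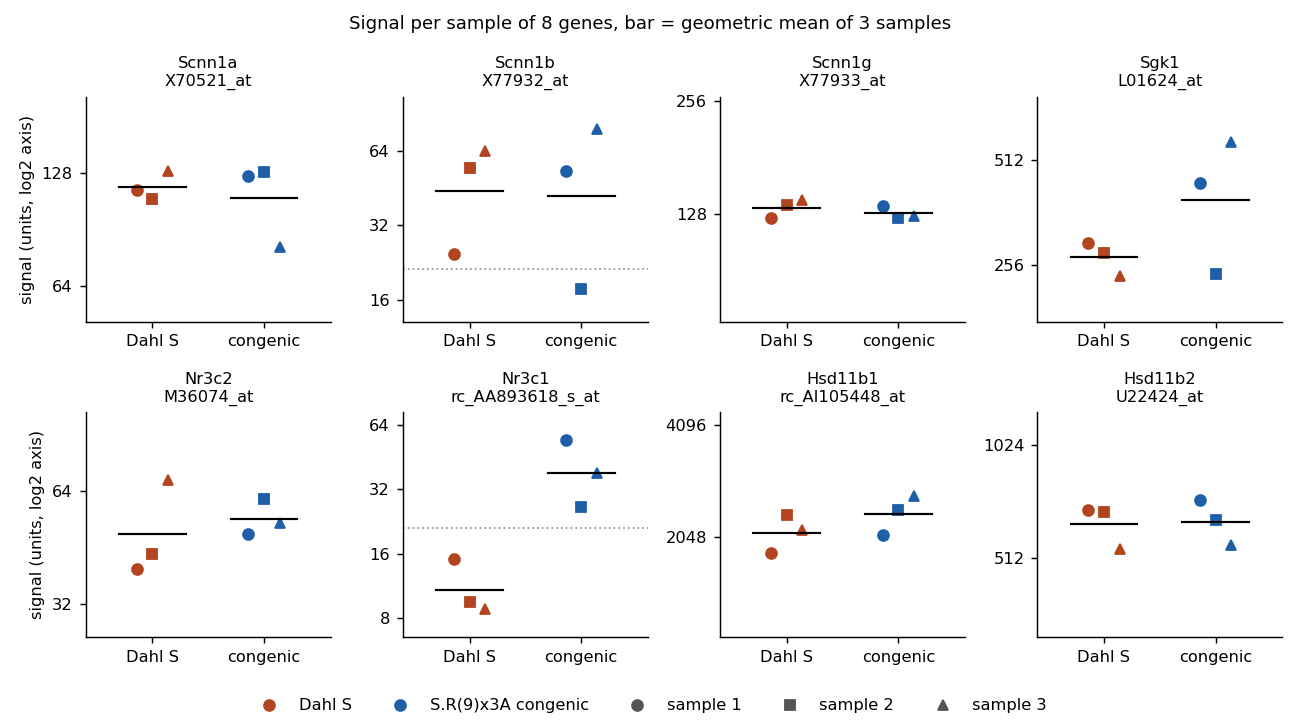
Signal per sample, on a log2 axis, of 1 probe set each for 8 genes in Dahl S (rust red) and congenic (blue) kidneys; circles, squares and triangles are samples 1, 2 and 3, black bars geometric means, and the dotted line the filter level of 21.2 units where it falls within the axis. The strains overlap in every panel except that of Nr3c1, where the 3 Dahl S values (8.8 to 15.2) lie under the filter level and the 3 congenic values (26.5 to 54.4) above it.

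Nedd4 encodes a ubiquitin ligase whose relatives tag ENaC for removal. It had 4 tested probe sets. U50842_at, on array type A, read 189.5, 174.7 and 154.6 units in Dahl S and 285.0, 190.6 and 149.9 in congenic samples. On type C, rc_AI230744_at read 1064.5, 893.5 and 769.6 in Dahl S and 1398.1, 1001.9 and 913.2 in congenic samples. In both, the congenic mean was higher and the strains overlapped. Their log2 differences were +0.22 (SE 0.26) and +0.27 (SE 0.20), each with a limma adjusted p of 0.9997. The other tested probe sets, rc_AA944469_at and rc_AI227677_at, differed by +0.07 (SE 0.51) and -0.006 (SE 0.55). The fifth, rc_AA963340_at, stayed at 8.9 to 20.1 units and was not tested.

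Within the strains the Nedd4 signals fell from sample number 1 to 3, and on 1 probe set they split by number rather than by strain. On type C, rc_AI227677_at read 586.1, 267.0 and 157.7 units in Dahl S samples 1, 2 and 3 and 586.9, 263.2 and 157.9 in congenic samples 1, 2 and 3. Sample 1 was thus 3.72 times sample 3 in each strain, while same-numbered samples of the 2 strains differed by at most 0.02 log2 units. Its within-strain spread, 0.95 log2 units, was larger than in 94.1% of the tested probe sets of its type. On type B, rc_AA944469_at read 280.3, 198.9 and 67.6 units in Dahl S and 216.4, 191.1 and 104.6 in congenic samples. Only for rc_AI230744_at was the congenic value the higher at each number. There it was higher by 0.39, 0.17 and 0.25 log2 units at 1, 2 and 3. All 4 tested Nedd4 probe sets had sample 1 highest and sample 3 lowest in both strains, as did 1024 of all 15721 tested probe sets (6.51%) and 5 of the 11 described here, Hsd11b2 being the other one. A measure of RNA quality moved with the number too. The ratio of 3 prime to 5 prime signal of the beta-actin control was 1.16 to 1.61 in the samples numbered 1 and 2.04 to 2.66 in the others, over both strains and the 3 array types. For the GAPDH control it was 1.03 to 1.37 in the samples numbered 1 and 1.25 to 1.77 in the others. Its part in the Nedd4 spread was not tested.

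**Figure D3:**
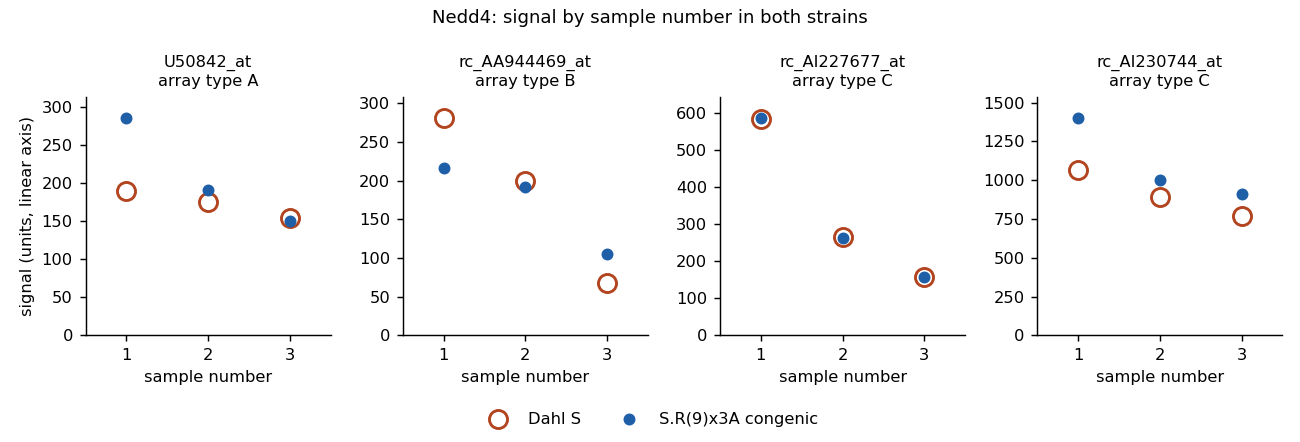
Signal (linear axis, from 0) of the 4 tested Nedd4 probe sets against sample number, with Dahl S as open rust-red circles and congenic as filled blue circles. In every panel sample 1 is highest and sample 3 lowest in both strains; for rc_AI227677_at the circles of the 2 strains coincide at each number.

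Nr3c2, the mineralocorticoid receptor through which aldosterone acts, gave a modest signal on its 1 tested probe set. M36074_at read 39.6, 43.6 and 68.5 units in Dahl S and 49.2, 61.1 and 52.5 in congenic samples. Each value lay above the filter level of 21.2 units. All congenic values fell inside the Dahl S range. The log2 difference was +0.14 (SE 0.34, 95% interval -0.64 to 0.92, limma adjusted p = 0.9997), and it was -0.016 without Dahl S sample 1. A second probe set from the same sequence record, M36074_g_at, read 1.5 to 29.8 units, and rc_AI177132_i_at on type C read 17.3 to 60.9. Each was under its filter level in 4 of 6 samples and was not tested.

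Nr3c1 encodes the glucocorticoid receptor, which shares hormones and DNA sites with the mineralocorticoid receptor. None of its 5 probe sets was bright enough to be tested. On rc_AA893618_s_at the readings were 15.2, 9.5 and 8.8 units in Dahl S and 54.4, 26.5 and 38.0 in congenic samples. The strains did not overlap on this probe set, and the 3 Dahl S values lay under the filter level of 21.2 units, so the size of the difference is uncertain. In a fit without the filter the log2 difference was +1.81 (SE 0.45, limma unadjusted p = 0.00874, adjusted p = 1.0 over 26202 probe sets). In that fit 6.24% of all probe sets had no overlap between the strains, and of the 19 described here this was the 1. The other 4 Nr3c1 probe sets did not separate the strains. M14053_at read 24.3, 9.1 and 13.3 units in Dahl S and 23.5, 17.3 and 17.8 in congenic samples, a log2 difference of +0.43 (SE 0.48). For rc_AA848823_i_at, congenic sample 1 read 65.4 units and the other 5 samples 0.8 to 5.4. In rc_AA848823_s_at the same congenic sample read 17.9 and the others 0.9 to 4.7. The signals of rc_AI137538_at were 2.9 to 5.5 units throughout.

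Hsd11b1, the reductase that regenerates active glucocorticoid from its inert form, was far above background. rc_AI105448_at read 1857.8, 2352.5 and 2144.7 units in Dahl S and 2080.1, 2432.1 and 2643.0 in congenic samples. The congenic mean was higher and the ranges overlapped. The means were 2118 ± 248 and 2385 ± 284 (SD, n = 3 per strain), a log2 difference of +0.17 (SE 0.15, 95% interval -0.17 to 0.51, limma adjusted p = 0.9997).

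Hsd11b2, the dehydrogenase that protects the mineralocorticoid receptor, read alike in both strains. U22424_at was at 685.6, 677.1 and 539.9 units in Dahl S and 728.5, 645.6 and 553.9 in congenic samples, with sample 3 lowest in each. The means were 634 ± 81.8 and 643 ± 87.3 (SD, n = 3 per strain). The log2 difference was +0.02 (SE 0.17, limma adjusted p = 0.9997), with a 95% interval from a ratio of 0.78 to 1.32. For Hsd11b2 the sign turned without Dahl S sample 3 (-0.09) or congenic sample 1 (-0.08).

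The rest of the pathway was followed through 5 lists of other genes, with each gene represented by its brightest tested probe set. The congenic mean was the higher in 3994 of all 8168 tested genes and the lower in 4174, with a median of -0.006 log2 units, and 0 passed limma's threshold. No gene of any of the 5 lists passed it either.

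Regulators that act on ENaC, such as the kinases, 14-3-3 proteins and proteases that set its number and opening, were evenly split. Of 27 tested members 13 were higher and 14 lower (median -0.007). The smallest p belonged to Stk39, the SPAK kinase of the WNK pathway, which read 38.0, 33.5 and 72.1 units in Dahl S and 262.3, 53.5 and 162.3 in congenic samples on D88190_s_at (+1.54 log2, SE 0.58). Congenic sample 2 lay within the Dahl S range, and the other 2 Stk39 probe sets read +0.42 and -0.41. Next came the 14-3-3 protein gene Ywhah (-0.37, SE 0.21). Nedd4l, the relative of Nedd4 best known for acting on ENaC, and the channel-activating protease gene Prss8 are named here after their values were seen. Nedd4l read 177.7, 249.0 and 153.9 units in Dahl S and 213.4, 265.3 and 214.2 in congenic samples (+0.28, SE 0.22), and Prss8 differed by +0.02 (SE 0.20).

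Chaperones and coregulators of the steroid receptors were higher in 15 of 20 tested genes (median +0.12). The count was 9 of 20 and the median -0.004 without Dahl S sample 1, and 12 of 20 and +0.02 without congenic sample 3. With the samples numbered 1 of both strains left out it was 13 of 20 (median +0.055). Ptges3, the p23 cochaperone, differed by +0.27 (SE 0.19), and the elongation factor gene Ell by -1.11 (SE 0.85), with congenic samples 2 and 3 at 24.5 and 11.9 units, under the filter level of type B.

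Genes known to respond to corticosteroids were lower in 12 of 18 tested genes (median -0.07). The pair with the smallest p were Ccn2, a matrix-associated growth factor (-1.35, SE 0.40), and Lcn2, a lipocalin of injured tubules (-1.60, SE 0.49). Ccn2 read 175.6, 179.4 and 95.5 units in Dahl S and 46.3, 56.2 and 69.6 in congenic samples, and Lcn2 read 63.4, 99.9 and 62.0 against 42.1, 13.2 and 25.6. Neither passed (limma unadjusted p = 0.00717 and 0.0114). The strains did not overlap in 4 of the 18 genes, these included, against 7.62% of all tested genes. The other two were Cebpb, a transcription factor gene (-0.68, SE 0.35), and Ptges, a prostaglandin synthase gene (+0.14, SE 0.20). Ccn2 and Lcn2 also respond to other signals. Leukocyte and stroma markers were lower in congenic samples, as Ccn2 and Lcn2 were. The summed signal of 3 tested leukocyte markers (of 4 listed) was 2738 to 3037 units in Dahl S and 2309 to 2468 in congenic samples. That of 5 stroma and smooth muscle markers (of 5) was 3490 to 4033 against 2463 to 2840. Blood markers had the lower congenic mean in 3 of 3 tested, but Dahl S sample 3 stood far above the rest. Their summed signal was 9978, 12345 and 45396 units in Dahl S samples 1, 2 and 3. In the congenic samples it was 15609, 12748 and 7787, so the strains overlapped. Other lists went the other way: proximal tubule and principal cell markers were each higher in 5 of 6 tested, and intercalated cell markers in 3 of 3. The distal tubule and thick limb markers were each higher in 2 of 3. The 1 tested glomerulus marker read 56 to 277 units in Dahl S and 290 to 366 in congenic samples. The part of these cells in the differences of Ccn2 and Lcn2 was not tested. Tsc22d3, the leucine zipper protein GILZ and a classical target of both receptors, is named here after its values were seen. It read 253.1, 228.0 and 241.3 units in Dahl S and 288.6, 223.6 and 303.3 in congenic samples (+0.16, SE 0.18). The congenic samples lay on both sides of the Dahl S range.

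Enzymes and carriers of steroid synthesis and metabolism were higher in 7 and lower in 6 of 13 tested genes (median +0.003). Akr1b1, aldose reductase, differed by +0.23 (SE 0.16) and Fdx1, the electron donor of mitochondrial steroid hydroxylases, by +0.22 (SE 0.20).

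Other transport genes of the aldosterone-sensitive tubule were higher in 14 of 17 tested genes, with a median of +0.12. The median over the list of log2 signal, centred per gene, varied between samples of a strain by 0.06 (SD). In the other lists this SD was 0.08 to 0.16, the highest being that of the chaperones and coregulators. With a sample left out, 11 to 14 of the 17 transport genes were higher, with a median of +0.09 to +0.17. Kcnj1, the ROMK potassium channel that works beside ENaC in principal cells, read 603.9, 731.5 and 744.3 units in Dahl S and 755.2, 846.1 and 881.6 in congenic samples on its brightest probe set (+0.26, SE 0.15, limma unadjusted p = 0.113). The strains did not overlap there, nor on the brightest probe set of Aqp2 (+0.18, SE 0.15). These were 2 of the 17 genes, against 7.62% of all tested genes. The other 2 Kcnj1 probe sets read +0.15 and -0.08. On the second Aqp2 probe set the strains overlapped, at 339.3, 376.1 and 213.2 units in Dahl S and 505.1, 364.0 and 310.3 in congenic samples. Slc8a1, the sodium-calcium exchanger of the connecting tubule, differed by -0.34 (SE 0.24).

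**Figure D4:**
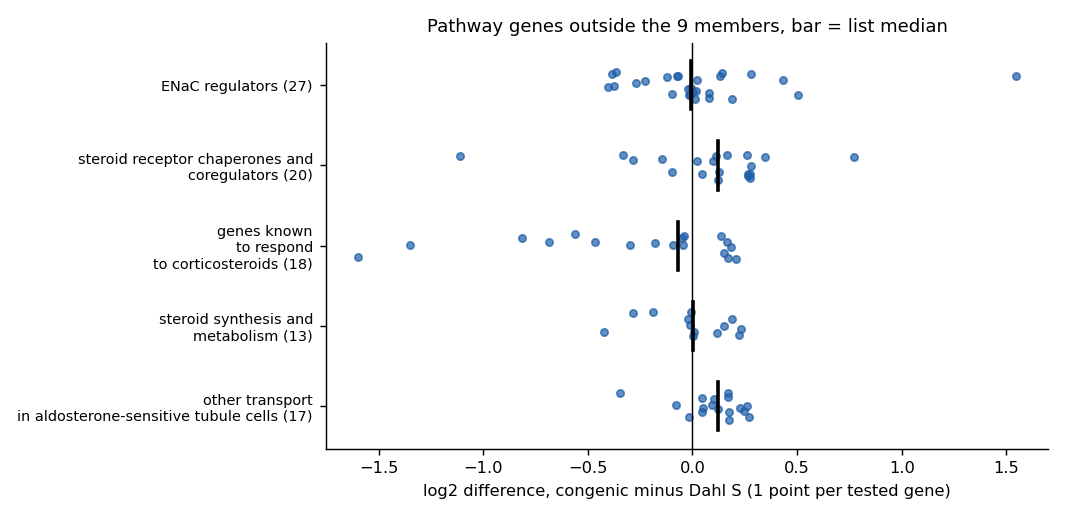
Log2 difference, congenic minus Dahl S, of each tested gene of 5 lists of pathway genes (1 point per gene, placed at random heights within its row; black bars are list medians, and the number tested is in brackets). The medians lie between -0.07 and +0.12; the points farthest from 0 are Stk39 at +1.54 and Lcn2 at -1.60.

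Across the 6 samples, the profiles most like those of 2 of the genes were looked up among 4295 probe sets of array type A with 1 symbol. With Scnn1a, which dips in congenic sample 3, the highest Pearson correlations were those of Ivd (0.99), Akr1c14 (0.99) and Il13 (0.99). With Sgk1 they were those of Grin2a (0.98), Ache (0.97) and Psma2 (0.97). All points come from the same 6 arrays, so the values are given as a description.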

How the data were processed

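Total kidney RNA of 3 Dahl S and 3 congenic samples was hybridised to 3 array types, with groups and numbers taken from sample titles. The authors' deposited values are linear intensities, 1 per probe set. From the values, their mean after trimming 2% at each end was the same on every array of a type to within 0.1 unit, so no scaling was added; they were made with software not given in the sources used here. Median signals ranged from 34.8 to 78.5 over the 18 arrays. On each type the samples numbered 1 had the highest median of their strain. For Dahl S and congenic these were 45.5 and 45.9 on A, 78.5 and 78.3 on B, and 74.6 and 75.6 on C. The number of samples, 3 per strain, limits the precision.

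Values were raised to the 10th percentile of their array type (3.1, 6.8 and 4.8 units), log2 was taken, and control and dim probe sets (mean log2 under the 40th percentile) were left out. Testing used limma 3.58.1 under R 4.3.3 (eBayes with an intensity trend), 1 fit per array type, adjusted over all 15721 tested probe sets. The fit was tested on simulated data. Figures used matplotlib 3.10.9. Of 18178 probe sets with 1 symbol, 18122 matched the GRCr8 gene table by gene ID.

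All probe sets of the 9 genes are given. In each pathway list the 2 genes with the smallest p are named, and for Scnn1a and Sgk1 the 3 best correlated genes; other names were added after their values were seen. The genes and lists were chosen with earlier results of these data known. Alternatives covered the floor, filter, scaling, eBayes settings, sample number, each sample left out and the adjustment. Same-numbered samples were not treated as pairs.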

Additional observations from a re-analysis of the deposited data

How the results depend on the processing

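No probe set of the 9 genes, and none in the whole series, passed the adjusted threshold under any alternative run; the lowest adjusted p of the 11 tested probe sets was 0.923, and adjusting within each array type or allowing an adjusted p of 0.1 also gave 0 calls. The sample number as a replicate block gave 0 calls, with limma's unadjusted p under 0.05 in 819 probe sets against 391 without it; rc_AI230744_at of Nedd4 had an unadjusted p of 0.0281 there (adjusted p = 0.923), the congenic value being the higher by 0.39, 0.17 and 0.25 at numbers 1, 2 and 3. The numbers were not taken to pair the samples, because deviations from the strain means correlated between the strains with r = 0.45, 0.08 and 0.18 for numbers 1, 2 and 3, although on types B and C alone each was over 0.1; 4 of the 6 samples correlated best with their own number, 2 on array type A and 6 on types B and C. The sign held in Sgk1, Scnn1g, Hsd11b1 and rc_AI230744_at of Nedd4 and turned in at least 1 alternative for the other 7. Under quantile normalization Scnn1b read +0.012 and rc_AI227677_at +0.0021, and without both samples numbered 1 Hsd11b2 read -0.016. With each sample left out in turn the ranges were -0.22 to 0.11 (Scnn1a), -0.53 to 0.55 (Scnn1b), -0.016 to 0.38 (Nr3c2), -0.093 to 0.12 (Hsd11b2), and for Nedd4 -0.028 to 0.44 (U50842_at), -0.54 to 0.49 (rc_AA944469_at) and -0.51 to 0.50 (rc_AI227677_at). Tested probe sets of the 9 genes without overlap numbered 1 without the filter (Nr3c1) and under median scaling (Nedd4), against 6.24% and 5.56% of all probe sets tested there. They numbered 3 without both samples numbered 1 (Scnn1g, Hsd11b1, Nedd4), where 29.9% of all did not overlap, and 0 to 2 with a sample left out (15% to 18% of all). The steroid receptor chaperone list had 9 to 15 genes higher with a sample left out, the steroid metabolism list 14 without the filter, where more genes are tested, and the transport list a median of +0.19 without both samples numbered 1. Apart from those, the cause of these changes was not tested. Dim signal left Nr3c1 untested and put 1 sample of Scnn1b under the filter level.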
